A study of Mus musculus with 6 samples.

Results

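The genes of cholesterol and fatty acid synthesis were examined in intestinal epithelium of mice with and without the atypical protein kinase C gene Prkci. The set held 30 genes, chosen by name from the 54446 genes of the count table: 7 of the mevalonate and isoprenoid steps, 11 of the sterol steps from squalene to cholesterol, 5 for control by SREBP and sterol carriage, and 7 lipogenic enzymes. The names were chosen with earlier results of these data known. All 30 were present in the table and all 30 passed the filter on low counts, which left 15068 genes in the test.

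RNA was sequenced from 6 libraries of jejunal epithelial cells, 1 library per mouse. The knockouts (n = 3) carried Prkci flox/flox and Villin-CRE, a recombinase driven by the villin promoter and expressed in intestinal epithelium. The controls (n = 3) carried Prkci flox/flox alone, so that effects of Cre itself and of Prkci loss cannot be told apart. All animals were 3 to 4 months old and were housed together. The titles name jejunum, and the series text names jejunum-ileum. The labels and the series text also disagree on whether the wash solution contained glucose.

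Cholesterol is built from acetyl-CoA by way of mevalonate, squalene and lanosterol. Fatty acids are built from the same acetyl-CoA by acetyl-CoA carboxylase and fatty acid synthase, and are then elongated and desaturated. Both pathways are switched on by SREBP transcription factors, which leave the endoplasmic reticulum with the escort protein SCAP when sterol is scarce and are held back there by INSIG proteins. In the small intestine the pathways lie beside uptake of dietary sterol and fat by villus enterocytes.

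Total counts were 18972906 to 26687856 in the knockouts and 22453798 to 23008047 in the controls. Prkci itself had 21.5, 14.6 and 21.4 CPM (reads per 1e6 after scaling for library composition) in knockouts 1 to 3, against 44.6, 46.9 and 44.0 CPM in controls 1 to 3. A log2 fold change of −1.24 (SE 0.17) had an edgeR adjusted p of 0.0719, short of the threshold of 0.05. DESeq2 called it lower (adjusted p = 9.92e-08), as did edgeR without knockout 1 (adjusted p = 0.00345). Along the leading principal component (54.7% of variance), knockouts 2 and 3 stood at 68.0 and 50.9 and knockout 1 at −21.9, against −33.3 to −30.4 in the controls. On the next component (20.2% of variance) knockout 1 stood apart from all other libraries, at −52.6. There knockouts 2 and 3 stood at 11.2 and −6.77 and the controls at 5.48 to 29.5. Xist and Ddx3y counts went against the sex stated in the series text for 3 libraries, knockout 3, control 2 and control 3. The 10 epithelial markers summed to 13200 to 15100 CPM in the knockouts and 12400 to 12800 CPM in the controls. The 10 T cell markers summed to 334 to 730 CPM in the knockouts and 164 to 278 CPM in the controls, and the 10 macrophage and dendritic cell markers to 38.0 to 51.2 CPM in the knockouts and 18.1 to 19.5 CPM in the controls. The 10 B and plasma cell markers summed to 292 to 463 CPM in the knockouts and 108 to 200 CPM in the controls. Smooth muscle and fibroblast markers (10 of 12 tested) summed to 14.0 to 87.2 CPM in the knockouts and 6.73 to 20.7 CPM in the controls. Of 7 adipocyte markers, 3 (Lep, Cfd and Retn) were at 0 in every library. In such bulk samples, fewer cells of a type and less RNA per cell cannot be told apart.

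No member of the synthesis pathways passed the threshold over all 6 libraries. By edgeR's quasi-likelihood test, 0 of 30 members were called, against 9 of 15068 genes tested (0.0597%). At an unadjusted p under 0.05, 1 member, the sterol carrier Stard4, was lower and 0 were higher (3.33% of members), against 9.32% of all genes higher, 7.09% lower and 16.4% in either direction. DESeq2 called that gene alone among the members, lower, against 1.95% of all genes lower and 5.55% in either direction, and limma-voom called 0 members, against 0.0332% of all genes. The libraries of the groups did not overlap for 1 of 30 members, again Stard4 with the knockouts lower, against 11.7% of all genes tested lower and 21.8% in either direction. None of these shares of members stood above the share of all genes in either direction. The fold changes leaned upward without passing: 21 members had a positive and 9 a negative log2 fold change, with a median of 0.15, against 0.01 over all genes. That median was −0.02 without control 2 and 0.01 with the sex shown by Xist and Ddx3y as a covariate.

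**Figure D1:**
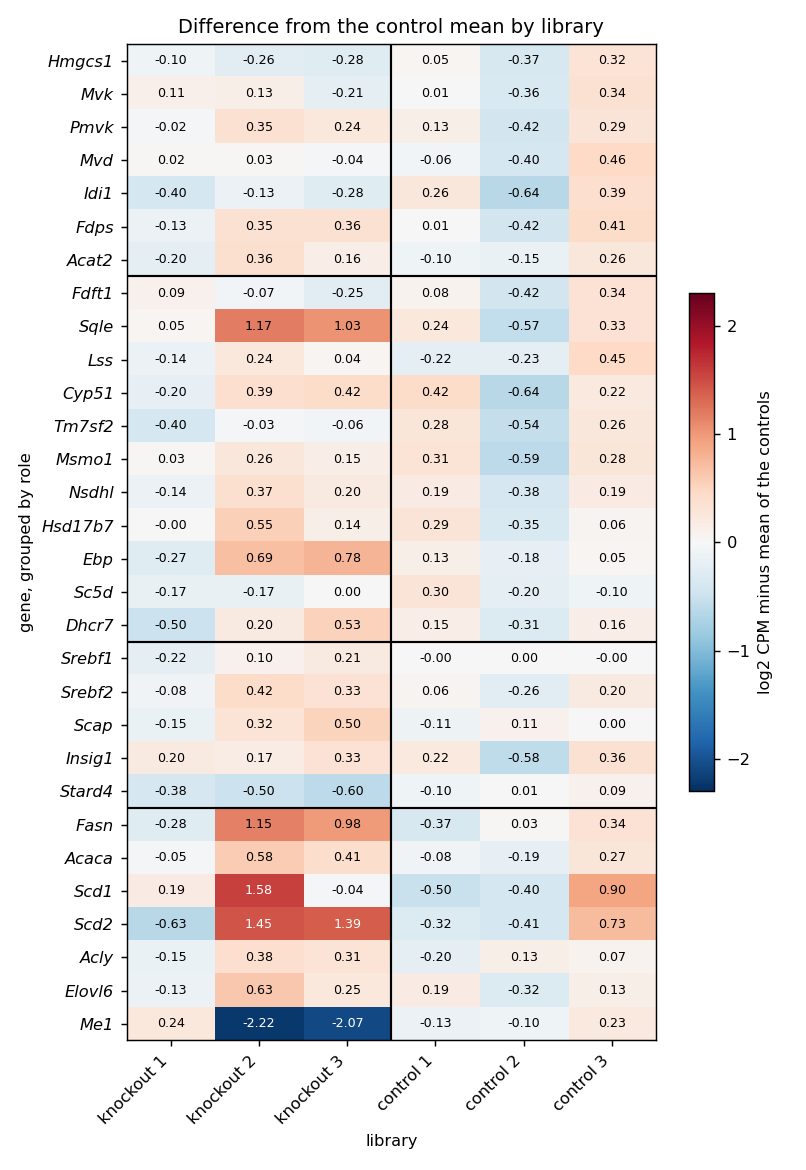
Heat map of the 30 members (rows, grouped by role) in the 3 knockout and 3 control libraries (columns), coloured by log2 CPM minus the mean of the controls. Knockouts 2 and 3 had 23 and 21 members above the control mean and knockout 1 had 8, while controls 1 to 3 had 18, 5 and 28.

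The spread between libraries of 1 genotype was as wide as that between genotypes. The mean member level, the mean over the 30 members of log2 CPM relative to the controls, was −0.13, 0.28 and 0.17 in knockouts 1 to 3 and 0.04, −0.31 and 0.27 in controls 1 to 3. The lowest level belonged to control 2 and the highest to knockout 2, with control 3 close behind, and the groups overlapped. Over all genes tested the same level lay between 0.01 and 0.06 in the knockouts and between −0.01 and 0.01 in the controls. Of the 30 members, 8, 23 and 21 exceeded the control mean in knockouts 1 to 3, and 18, 5 and 28 did so in controls 1 to 3. Control 2 was low and control 3 high across most of the members, as knockout 1 was low and knockout 2 high. By role, the median log2 fold change was −0.01 for the mevalonate steps, 0.13 for the sterol steps, 0.18 for SREBP control and carriage, and 0.33 for the lipogenic enzymes.

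**Figure D2:**
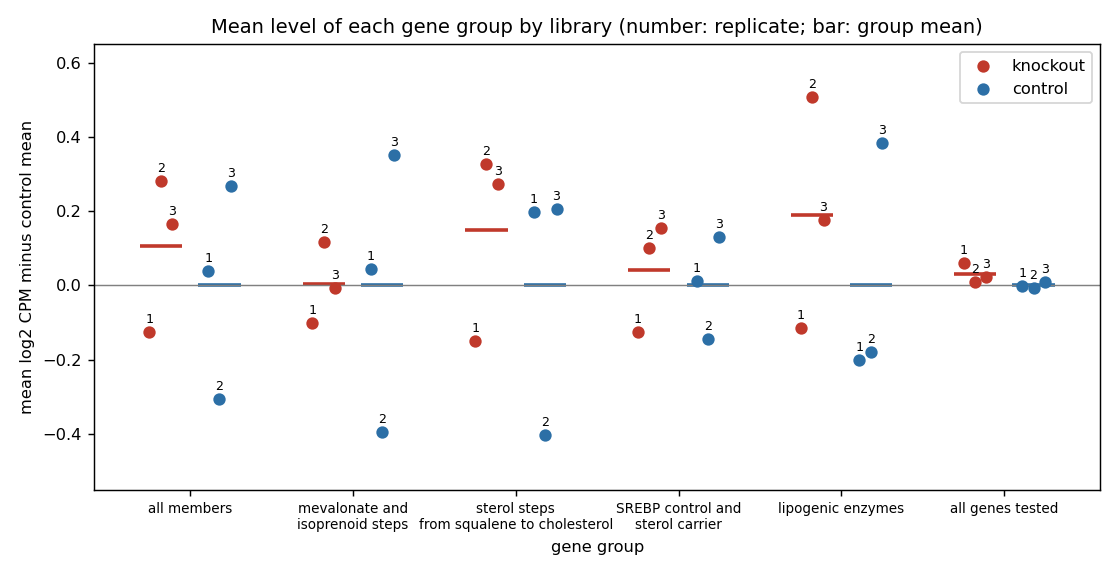
Mean level of each role group (log2 CPM minus the mean of the controls, averaged over its genes) in each knockout and each control library. The lipogenic enzymes spread most among the knockouts, with −0.12, 0.51 and 0.18 in knockouts 1 to 3 and −0.20, −0.18 and 0.38 in controls 1 to 3.

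Promoter sequence is shown for 4 members on which the values below turn: Hmgcs1 as the entry enzyme with the sterol element, Ebp and Fasn as genes high in knockouts 2 and 3, and Me1 as the gene low in those libraries. Each line gives the 250 bases before the transcript start on the gene's own strand (RefSeq, GRCm38.p6), with the start itself just beyond the last base. Capitals mark matches on either strand to the NF-Y box CCAAT, which reads ATTGG on the opposite strand, and, in Hmgcs1, to the sterol regulatory element TCACNCCAC, to which SREBP binds. The regions are chr13:119690101-119690350 (plus strand) for Hmgcs1, chrX:8193513-8193762 (minus strand) for Ebp, chr11:120824548-120824797 (minus strand) for Fasn and chr9:86695915-86696164 (minus strand) for Me1.
Hmgcs1: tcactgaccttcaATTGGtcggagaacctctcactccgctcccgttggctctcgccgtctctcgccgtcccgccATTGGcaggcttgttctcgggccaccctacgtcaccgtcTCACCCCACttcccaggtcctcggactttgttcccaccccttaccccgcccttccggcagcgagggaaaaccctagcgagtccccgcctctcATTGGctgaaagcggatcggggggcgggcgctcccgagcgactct
Ebp: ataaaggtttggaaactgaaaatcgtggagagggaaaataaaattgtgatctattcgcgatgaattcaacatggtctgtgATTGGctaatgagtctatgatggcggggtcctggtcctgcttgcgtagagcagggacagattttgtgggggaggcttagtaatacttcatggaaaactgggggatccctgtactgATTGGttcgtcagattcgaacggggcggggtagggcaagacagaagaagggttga
Fasn: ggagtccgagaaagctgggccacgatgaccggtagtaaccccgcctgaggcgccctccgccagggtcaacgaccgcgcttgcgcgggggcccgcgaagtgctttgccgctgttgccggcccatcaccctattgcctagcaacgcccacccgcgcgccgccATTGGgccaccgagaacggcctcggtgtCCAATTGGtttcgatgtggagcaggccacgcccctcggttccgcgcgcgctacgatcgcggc
Me1: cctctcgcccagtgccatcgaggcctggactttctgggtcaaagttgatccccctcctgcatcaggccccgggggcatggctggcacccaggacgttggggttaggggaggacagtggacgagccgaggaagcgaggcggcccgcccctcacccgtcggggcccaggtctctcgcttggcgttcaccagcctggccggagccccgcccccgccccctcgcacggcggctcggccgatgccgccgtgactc
Hmgcs1 held TCACCCCAC with its first base at position −137 relative to the start, between ATTGG matches whose first bases lay at −176 and −45. Ebp held ATTGG at −170 and −55. Fasn held CCAAT at −62 and ATTGG at −90 and −59, and the pair at −62 and −59 forms a run that also contains the E-box CAATTG. The Me1 window held neither element. A RefSeq promoter was at hand for 24 of the 30 members, 31 promoters in all, each read from 250 bases before to 50 after the start. None was at hand for Fdps, Fdft1, Sqle, Stard4, Scd1 and Scd2, so the shares below do not cover them. TCACNCCAC was in 1 of the 31 (3.23%), against 1.24% of 32851 promoters of all genes and 1.19% of the protein-coding ones. CCAAT was in 21 of the 31 (67.7%), against 37.4% of all promoters and 38.2% of protein-coding ones. GGGCGG, the Sp1 box, was in 74.2% of member promoters, against 35.7% of all and 46.2% of protein-coding ones, and CANNTG in 77.4%, against 72.3% of all. These are matches of letters in a window, both strands searched, and say nothing of binding.

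The mevalonate and isoprenoid genes did not pass the test in either direction, 0 of 7 called, with log2 fold changes between −0.34 and 0.17. Hmgcs1 (ENSMUSG00000093930.2, chr13:119690379-119708260 on mm10), the cytosolic synthase that makes HMG-CoA, had 325, 292 and 289 CPM in knockouts 1 to 3, against 362, 270 and 436 CPM in controls 1 to 3. All 3 knockouts lay within the control range, near its lower end, and varied less among themselves than the controls did. Its log2 fold change was −0.24 (SE 0.18, edgeR adjusted p = 0.538). Part of its exon length (12.1%) overlaps an antisense gene, and whether counting used strand is not given in the sources used here.

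Idi1, the isomerase that supplies dimethylallyl diphosphate, was at 5.06, 6.10 and 5.49 CPM in the knockouts, against 8.01, 4.25 and 8.79 CPM in the controls. Controls 1 and 3 lay above every knockout and control 2 below every one. The log2 fold change of −0.34 (SE 0.28) had an edgeR adjusted p of 0.572. Mvk, Pmvk and Mvd, which phosphorylate mevalonate and decarboxylate its product, Fdps, which makes farnesyl diphosphate, and Acat2, a cytosolic acetoacetyl-CoA thiolase, ranged in log2 fold change from −0.04 (Mvd) to 0.17 (Fdps). The Fdps locus shares 26.7% of its exon bases with a gene on the same strand, so its counts are uncertain.

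Among the 11 sterol genes, 0 were called over 6 libraries, 8 leaned upward and 3 downward, and the values of Sqle and Ebp separated knockouts 2 and 3 from the other libraries. Sqle (ENSMUSG00000022351.14, chr15:59315077-59331192), the squalene epoxidase and a rate-controlling oxygenase of the pathway, had 130, 283 and 256 CPM in the knockouts, against 148, 84.4 and 158 CPM in the controls. Knockouts 2 and 3 exceeded every control and knockout 1 lay inside the control range. Over 6 libraries this gave a log2 fold change of 0.78 (SE 0.34) and an edgeR p of 0.0553 before and 0.316 after adjustment.

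Ebp (ENSMUSG00000031168.14, chrX:8185329-8193512), the sterol isomerase that moves the ring double bond, whose promoter with its pair of ATTGG matches is printed above, had 44.4, 86.7 and 92.0 CPM in the knockouts, against 58.7, 47.2 and 55.7 CPM in the controls. Knockout 1 was the lowest library of all and knockouts 2 and 3 were the highest. Over all 6 libraries the log2 fold change was 0.47 (SE 0.26, edgeR adjusted p = 0.417). Sc5d, the lathosterol oxidase near the end of the pathway, did not share that split: it had 181, 180 and 204 CPM in the knockouts, against 250, 177 and 190 CPM in the controls, with a log2 fold change of −0.13 (SE 0.15, edgeR adjusted p = 0.696).

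The other 8 sterol genes lay between a log2 fold change of −0.20 (Tm7sf2, a sterol reductase) and 0.23 (Hsd17b7, a ketoreductase). Dhcr7, which completes cholesterol from 7-dehydrocholesterol, had 46.1, 74.7 and 94.2 CPM in the knockouts, against 72.1, 52.4 and 72.7 CPM in the controls, and so put knockout 1 lowest and knockouts 2 and 3 highest, as Ebp did. Cyp51, the lanosterol demethylase, put knockout 1 at 149 CPM and knockouts 2 and 3 at 224 and 230 CPM, against 229, 110 and 199 CPM in the controls, so that control 1 matched the high knockouts. Fdft1, the squalene synthase (log2 fold change −0.10), overlaps Ctsb on the opposite strand over 18.3% of its exon bases, and Tm7sf2 overlaps Vps51 on the same strand over 12.1%.

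**Figure D3:**
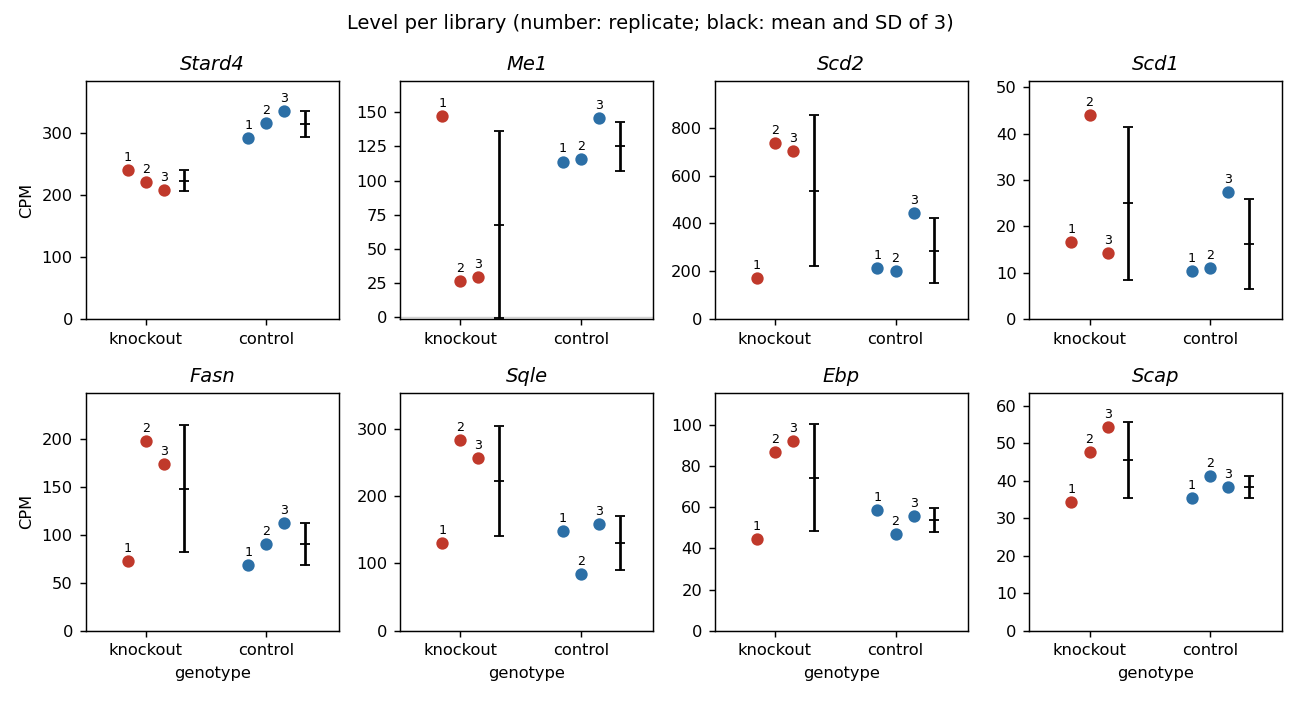
CPM of 8 members in each knockout and control library (points), with the mean and SD of each genotype (n = 3). Stard4 separates the genotypes, at 208 to 241 CPM in the knockouts and 293 to 336 CPM in the controls, whereas Me1, Scd2, Sqle, Ebp and Fasn separate knockouts 2 and 3 from knockout 1.

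Stard4 was the member that differed most evenly between genotypes. Its product (ENSMUSG00000024378.9) is a soluble carrier of cholesterol between membranes, and the gene is a known SREBP target. It had 241, 222 and 208 CPM in the knockouts (mean 224 ± 16.8, SD, n = 3), against 293, 316 and 336 CPM in the controls (315 ± 21.4, SD, n = 3). Every knockout lay below every control, and the gap between the groups exceeded the spread within either. The knockout to control ratio was 0.71 and the log2 fold change −0.49 (SE 0.11). Its edgeR p was 0.00324, but 0.131 after adjustment over 15068 genes, so it was not called. DESeq2 called it lower, with an adjusted p of 0.00333, and over all alternatives the adjusted p ran from 0.00333 to 0.445, always with a negative log2 fold change, between −0.60 and −0.43. The marker sums of T cells, of B and plasma cells, of macrophages and dendritic cells, of endothelium (6.45 to 17.6 CPM in the knockouts and 2.75 to 4.86 CPM in the controls) and of epithelium, and the share of counts at loci overlapping ribosomal RNA (4.89% to 5.91% in the knockouts and 2.16% to 2.91% in the controls), were also without overlap between the genotypes, higher in the knockouts. Their part in the Stard4 value was not tested.

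Of the 4 SREBP control genes, 0 were called by edgeR over 6 libraries. Srebf1, which encodes the SREBP-1 factors that favour lipogenic targets, had 60.1, 75.1 and 80.8 CPM in the knockouts, against 69.9, 70.3 and 70.1 CPM in the controls. The controls were nearly equal, and the knockouts lay on both sides of them. The log2 fold change of Srebf1 was 0.04 (SE 0.13, edgeR adjusted p = 0.898). Srebf2, whose product favours sterol genes, had 168, 237 and 223 CPM in the knockouts, against 185, 148 and 204 CPM in the controls, a log2 fold change of 0.23 (SE 0.18, edgeR adjusted p = 0.542). Knockouts 2 and 3 were again above every control and knockout 1 was within their range.

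Scap, the escort of SREBP, had 34.4, 47.8 and 54.3 CPM in the knockouts, against 35.5, 41.2 and 38.4 CPM in the controls, a log2 fold change of 0.25 (SE 0.17, edgeR adjusted p = 0.502). Knockout 1 lay just below the lowest control and knockouts 2 and 3 above the highest. The locus overlaps an unclassified transcript on the opposite strand over 13.2% of its exon bases. Insig1, the sterol-dependent brake and itself an SREBP target, had 124, 121 and 135 CPM in the knockouts, against 126, 72.2 and 138 CPM in the controls. Only control 2 stood apart. Its log2 fold change was 0.18 (SE 0.23, edgeR adjusted p = 0.716).

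The lipogenic enzymes had log2 fold changes between −0.89 and 0.91, 6 positive and 1 negative, with 0 of 7 called by edgeR over 6 libraries. Fasn (ENSMUSG00000025153.9, chr11:120805846-120824547), fatty acid synthase, had 72.9, 197 and 174 CPM in the knockouts, against 68.7, 90.3 and 112 CPM in the controls. Knockouts 2 and 3 exceeded every control and knockout 1 lay near the lowest. Fasn thus had a log2 fold change of 0.71 (SE 0.36), with an edgeR p of 0.0904 before and 0.377 after adjustment. Acaca, the carboxylase that feeds it with malonyl-CoA, had 25.8, 39.9 and 35.5 CPM in the knockouts, against 25.2, 23.4 and 32.2 CPM in the controls, a log2 fold change of 0.33 (SE 0.20, edgeR adjusted p = 0.443). The order of its knockouts was that of Fasn, on a smaller scale. Acly, which makes cytosolic acetyl-CoA from citrate, and Elovl6, which elongates palmitate, had log2 fold changes of 0.19 and 0.26.

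Scd2 (ENSMUSG00000025203.5, chr19:44293676-44306864), a stearoyl-CoA desaturase, had 173, 735 and 705 CPM in the knockouts, against 214, 202 and 445 CPM in the controls. Knockout 1 was the lowest of the 6 libraries, knockouts 2 and 3 were the highest, and control 3 came next. For Scd2 the log2 fold change was 0.91 (SE 0.56, edgeR adjusted p = 0.447). Those 3 highest libraries were also the 3 with high Xist counts, 23534, 33757 and 31810 reads in knockouts 2 and 3 and control 3, against 10, 9 and 12 in knockout 1 and controls 1 and 2. With the sex shown by Xist and Ddx3y as a covariate, a term added after the data were seen, the Scd2 log2 fold change was 0.21 (edgeR adjusted p = 0.748).

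Scd1 and Me1 were singled out after their values were seen. Scd1 (chr19:44394451-44407709), the neighbouring desaturase, was at 16.7, 44.0 and 14.3 CPM in the knockouts, against 10.3, 11.1 and 27.5 CPM in the controls. Knockout 2 was the highest and control 3 next, and knockout 3 lay within the control range, so Scd1 did not follow Scd2 in knockout 3. Its log2 fold change was 0.61 (SE 0.54, edgeR adjusted p = 0.586) and was −0.06 without knockout 2. The Scd genes are close paralogs, and how reads shared between them were counted is not given in the sources used here.

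Me1 (ENSMUSG00000032418.15, chr9:86581371-86695953), the cytosolic malic enzyme that supplies NADPH for fatty acid synthesis, had 147, 26.7 and 29.6 CPM in the knockouts, against 114, 116 and 146 CPM in the controls. Knockouts 2 and 3 were far below the other libraries and knockout 1 was level with the highest control. Relative to the mean of the controls, the ratio was 1.18, 0.213 and 0.236 in knockouts 1 to 3. Because of that split its log2 fold change of −0.89 carried an SE of 0.63 (edgeR adjusted p = 0.506). Me1 was thus low in the same libraries in which Fasn and Scd2 were high. Its promoter window, printed above, was the one of the 4 without a CCAAT match, while the window of another Me1 start in RefSeq held 1. The RefSeq windows of Acaca, Acat2, Elovl6 and Scap held none either. The log2 fold changes of those genes over 6 libraries were 0.33, 0.12, 0.26 and 0.25. A link between the match and the level was not tested.

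Leaving out knockout 1 changed the result for 7 members. With knockouts 2 and 3 against the 3 controls, edgeR called 5 members higher and 2 lower, 23.3% of the 30, against 17.5% of the 15470 genes tested in that fit (10% higher and 7.44% lower). The share of members was therefore near that of genes at large. Both knockouts in that fit had high Xist counts, as did control 3 but not controls 1 and 2. Genotype and sex by Xist were thus partly aligned there and were not separated in these calls. The 5 higher were Scd2 (log2 fold change 1.33, SE 0.32, edgeR adjusted p = 0.0325), Sqle (1.05, SE 0.24, edgeR adjusted p = 0.0275), Fasn (1.04, SE 0.19, edgeR adjusted p = 0.0123), Ebp (0.73, SE 0.11, edgeR adjusted p = 0.00648) and Scap (0.41, SE 0.11, edgeR adjusted p = 0.0399). The 2 lower were Me1 (−2.16, SE 0.14, edgeR adjusted p = 0.000431) and Stard4 (−0.55, SE 0.11, edgeR adjusted p = 0.0140). At an unadjusted p under 0.05 in that fit, 9 of 30 members were higher, a larger share than the 17.9% of all genes. At that p, 2 of 30 were lower, a smaller share than the 15.8% of all genes. Knockout 1 had 22 of 30 members below the control mean, so leaving it out raised most member fold changes by itself. Nothing about the members is read from these 2 shares. Leaving out any of the other 5 libraries gave 0 called members, against 0.0837% of all genes without knockout 2 and 0% in the other 4 fits. At an unadjusted p under 0.05, 4 of 30 members were lower without control 2, a larger share than the 4.27% of all genes. Control 2 had 25 of 30 members below the control mean, so leaving it out lowered most member fold changes by itself. Sterol and lipogenic genes each gave 2 of the higher calls, SREBP control gave 1, and the mevalonate steps gave none: their median log2 fold change in that fit was −0.05, against 0.26 for the sterol genes and 0.48 for the lipogenic enzymes.

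**Figure D4:**
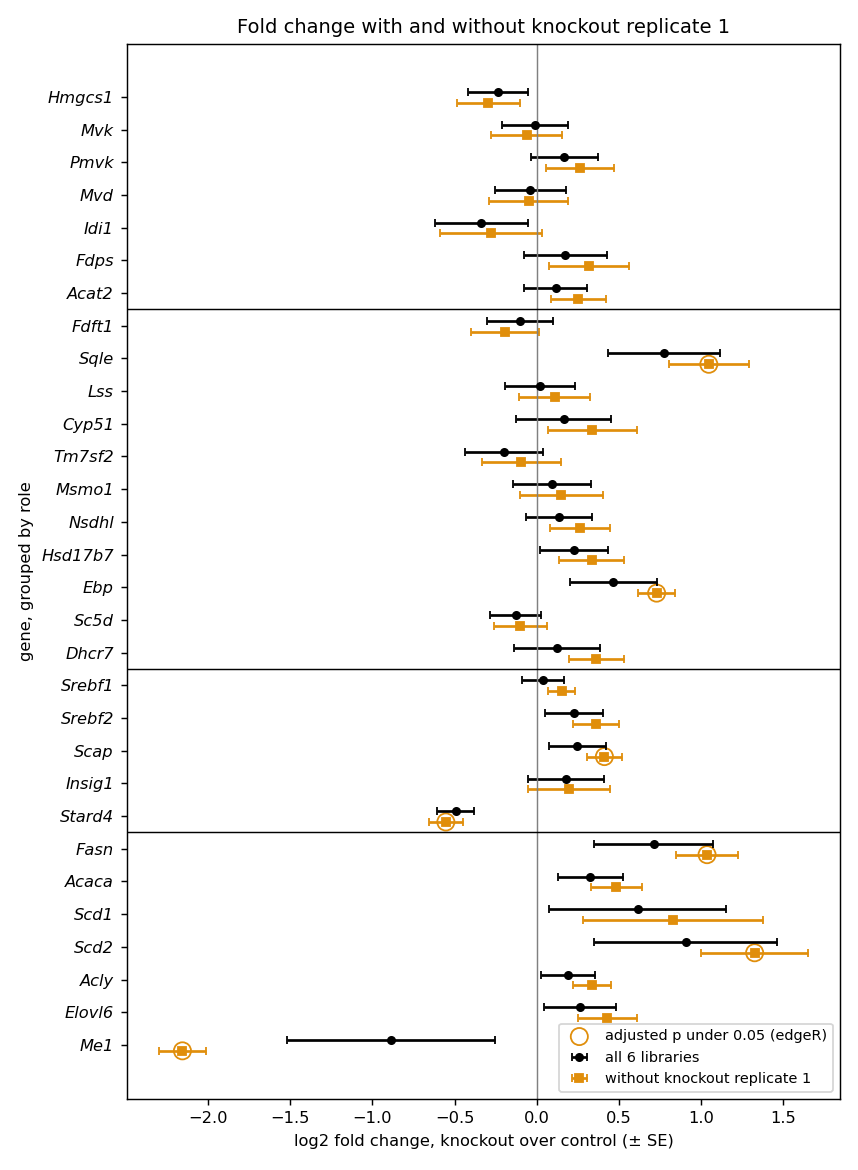
Log2 fold change (knockout minus control) with its SE for each member, with all 6 libraries and without knockout 1; circles mark an edgeR adjusted p under 0.05. Without knockout 1, 7 members pass, Me1 at −2.16 and Scd2 at 1.33 being the extremes; with all 6 libraries none passes.

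Other measures split the knockouts in the same way. The 10 villus enterocyte markers summed to 37000, 55200 and 47600 CPM in knockouts 1 to 3, against 37500 to 44600 CPM in the controls. The 10 markers of jejunum and ileum summed to 2920, 7340 and 6510 CPM in the knockouts, against 3580 to 4350 CPM in the controls. Of these markers, 5 had a positive and 5 a negative log2 fold change over 6 libraries, so the sum does not speak for each. The 12 crypt and cell cycle markers summed to 363, 861 and 723 CPM in the knockouts, against 427, 854 and 439 CPM in controls 1 to 3. Control 2, the library with the lowest mean member level, thus lay near knockout 2 and above knockout 3 in these markers. High Xist also marked knockouts 2 and 3 and not knockout 1. With sex by Xist and Ddx3y as a covariate over all 6 libraries, the log2 fold change was 0.47 for Sqle, 0.30 for Fasn, 0.22 for Ebp and 0.13 for Scap, each smaller than without it, while it was −1.0 for Me1 and −0.49 for Stard4. The part of villus, regional and cell cycle markers in the member values was not tested.

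Per kilobase of exon, the members spanned a wide range of levels in both genotypes. These levels are mean CPM per kilobase over 3 libraries, for the 29 members with an exon length. Scd2 was highest in the knockouts, at 98.4 CPM per kilobase, against 52.5 in the controls, where it ranked below Hmgcs1 (65.7 in the knockouts and 77.5 in the controls) and Stard4 (40.1 in the knockouts and 56.4 in the controls). Its libraries overlapped between genotypes, as did those of Hmgcs1, so their change of rank was within the spread. Cyp51 was at 45.5 in the knockouts and 40.6 in the controls, Insig1 at 41.1 in the knockouts and 36.3 in the controls, and Sc5d at 38.7 in the knockouts and 42.3 in the controls, neighbours that did not differ beyond their spread. Srebf2 (29.2 in the knockouts and 24.9 in the controls) exceeded Srebf1 (12.8 in the knockouts and 12.4 in the controls). At the low end were Fdps (2.19 in the knockouts and 1.95 in the controls), Acaca (1.98 in the knockouts and 1.58 in the controls) and Idi1 (1.58 in the knockouts and 2.00 in the controls). Scd1 was at 5.11 in the knockouts and 3.34 in the controls, far below Scd2.

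**Figure D5:**
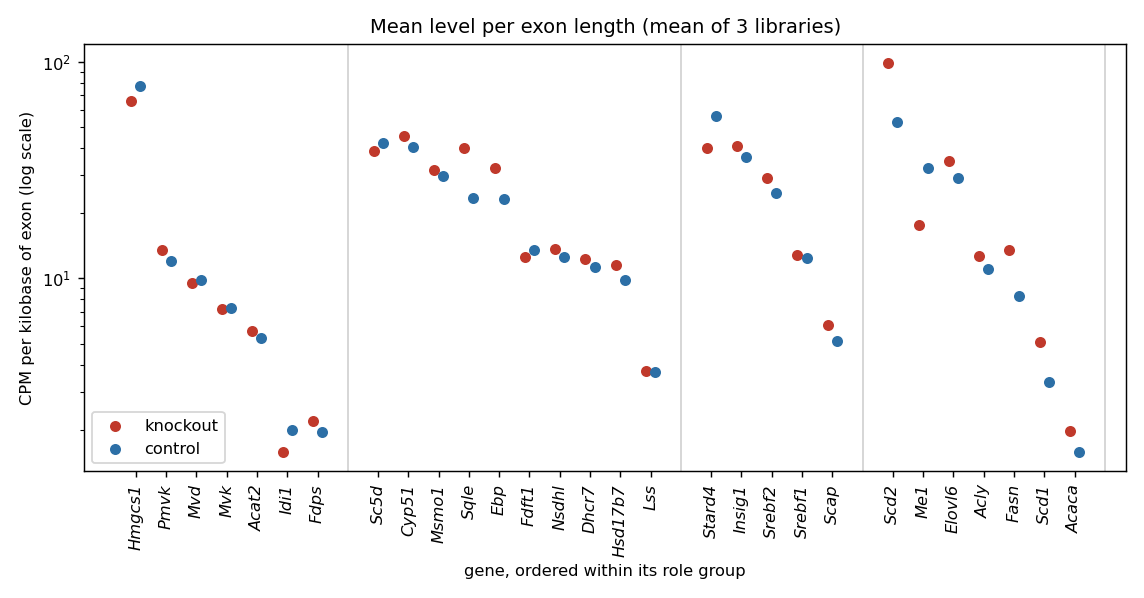
Mean level per kilobase of exon (CPM per kilobase, log axis) of the 29 members with an exon length, for the knockouts and the controls (n = 3 each). Scd2, Hmgcs1 and Stard4 are at the top in the controls (52.5, 77.5 and 56.4), and Fdps, Acaca and Idi1 are near the bottom in both genotypes.

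Genes that neighbour the members in the pathway gave 0 calls by edgeR over 6 libraries in each of 5 lists, while DESeq2 called 5 of them on the same libraries. The DESeq2 calls were Acat1 (adjusted p = 0.0357), Cyb5r3 (0.0372), Ppara (0.00342) and Bdh1 (0.0257), all lower, and Scarb1 (0.0435), higher. By list these were 2 of 13 other sterol and isoprenoid genes, 1 of 20 transport genes and 2 of 20 oxidation genes. None of the 14 other SREBP regulators or 25 other lipogenic genes was called. Over all genes, DESeq2 called 5.55% in either direction. At an unadjusted edgeR p under 0.05, 9.32% of all genes were higher and 7.09% lower, the background for the list counts that follow. Of 13 other sterol and isoprenoid genes tested, 4 were lower and 0 higher at an unadjusted p under 0.05 (30.8% of the list, against 16.4% of all genes in either direction), with a median log2 fold change of 0.03. Acat1, the mitochondrial thiolase shared with ketone metabolism, had 77.4, 46.6 and 64.5 CPM in the knockouts, against 86.2, 120 and 108 CPM in the controls, a log2 fold change of −0.74 (SE 0.21, edgeR adjusted p = 0.180). Cyb5r3, the reductase that passes electrons to sterol and fatty acid oxygenases, had a log2 fold change of −0.55 (SE 0.16, edgeR adjusted p = 0.181) without overlap of the groups.

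Of 14 other SREBP regulators, 2 were higher and 0 lower at an unadjusted p under 0.05 (14.3%, near the 16.4% of all genes in either direction), namely Insig2, the second INSIG (log2 fold change 0.60, SE 0.22, edgeR adjusted p = 0.248), and Rnf145, a sterol-responsive ubiquitin ligase (0.79, SE 0.34, edgeR adjusted p = 0.302). In both, every knockout but the first lay above every control. Pgrmc1, the most abundant of that list per length, had a log2 fold change of 0.04 (SE 0.17, edgeR adjusted p = 0.931).

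Of 20 genes of sterol transport, storage and LXR, 3 were higher and 1 lower at an unadjusted p under 0.05 (20%, near the 16.4% of all genes). Scarb1, a scavenger receptor for lipoprotein cholesterol, had 5.36, 38.1 and 29.6 CPM in the knockouts, against 5.54, 1.37 and 3.93 CPM in the controls. Knockouts 2 and 3 were far above the other libraries and knockout 1 was inside the control range. Scarb1 had a log2 fold change of 2.75 (SE 0.76, edgeR adjusted p = 0.174). Nr1h3, the oxysterol receptor LXR alpha, was lower in every knockout than in any control (log2 fold change −0.46, SE 0.13, edgeR adjusted p = 0.180). Abcg1, of the same list, was higher in every knockout than in any control (0.59, SE 0.23, edgeR adjusted p = 0.264). These 2 were the genes of the list without overlap (10%), against 21.8% of all genes in either direction. Npc1l1, the intestinal importer of cholesterol and the most abundant of the list per length, had 1590, 2000 and 1830 CPM in the knockouts, against 2090, 1640 and 1630 CPM in the controls, a log2 fold change of 0.02 (SE 0.17).

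Of 25 other lipogenic and NADPH-supply genes tested, 1 was higher and 1 lower at an unadjusted p under 0.05 (8%, against 16.4% of all genes). Elovl1, an elongase of very long chains, had a log2 fold change of 0.55 (SE 0.22, edgeR adjusted p = 0.279), and Acss2, which makes acetyl-CoA from acetate, one of −0.38 (SE 0.12, edgeR adjusted p = 0.201). Pgd, an NADPH source of the pentose phosphate pathway, had 339, 374 and 338 CPM in the knockouts, against 341, 356 and 359 CPM in the controls, and so did not show the split of Me1, the other NADPH source named. Of 20 genes of fatty acid oxidation and ketone bodies, 5 were lower and 0 higher at that threshold (25%, against 16.4% of all genes in either direction and 7.09% lower). Ppara, the receptor that activates fatty acid oxidation genes, had 15.4, 17.5 and 19.0 CPM in the knockouts, against 26.5, 25.3 and 26.7 CPM in the controls, with no overlap (log2 fold change −0.60, SE 0.12, edgeR adjusted p = 0.118). Bdh1, a ketone body dehydrogenase, had a log2 fold change of −0.54 (SE 0.14, edgeR adjusted p = 0.152). Without knockout 1, edgeR called 30.8% of the other sterol genes, 28.6% of the other SREBP regulators, 25% of the transport genes, 36% of the other lipogenic genes and 25% of the oxidation genes in either direction, against 17.5% of all genes in that fit.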

How the data were processed

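RNA was measured in 6 mouse libraries, 3 knockout and 3 control, grouped by genotype with replicate numbers from the titles. The authors deposited raw whole-number read counts per gene, with no normalization. The submitters' processing notes list tools without a role or order, and these include STAR 2.5.0a, bcl2fastq 2.17, Trim Galore and FastQC, with build mm10. Poly-A selection and a ribosomal depletion kit are both named, per the labels' protocols. No source used here names the read counter, strand setting or annotation. Of 54446 gene identifiers, 53229 (97.8%) matched GENCODE release M21, which gave exon lengths.

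Testing used edgeR 4.0.16 under R 4.3.3 (TMM scaling, minimum count 10 in the tool's filter, two-sided quasi-likelihood F test, genotype as the only term), with Benjamini-Hochberg adjustment over all genes tested. CPM is the scaled count per 1e6 reads, and levels are log2 CPM with a prior count of 2. Each SE was taken from the fold change (log2) and the root of its F statistic. The test was tested on simulated data. The members, lists and rules were chosen with earlier results of these data known, and support nothing by themselves. Per-library values are given for Prkci, for members with the 2 lowest p-values and the highest level in each role, and for SREBP control genes. Those of Scd1, Me1, Dhcr7 and Cyp51 were added after their values were seen. In each neighbouring list, the 2 genes of lowest p and the most abundant were chosen, and not every gene so chosen is reported here.

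Alternatives were DESeq2 size factors, library totals, 2 other filters, DESeq2 1.42.0, limma-voom 3.58.1, a replicate block, sex from the series text, sex by Xist and Ddx3y, and leaving out each library. Same-numbered libraries of the groups deviated together at correlations of 0.117, 0.119 and 0.149 across genes (other pairs −0.143 to 0.00929), all over 0.1, so the number was treated as a possible pairing, although no label says what it marks. Replicates were from separate mice. No pair of libraries agreed within sampling noise (lowest chi-square per gene 23.8).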

Additional observations from a re-analysis of the deposited data

How the results depend on the processing

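All values here are from edgeR unless another tool is named. With the replicate block, 0 members were called in either direction, as without it, 1 member was higher at an unadjusted p under 0.05, and 0 genes were called higher and 0 lower, against 8 and 1. Genes called higher numbered 196 with no filter, 542 by DESeq2, 4 by limma-voom, 4 with the sex of the series text and 0 to 1549 when a library was left out. Genes called lower numbered 5 with library totals, 88 with no filter, 294 by DESeq2, 0 with the sex of the series text, 3 with sex by Xist (added after the data were seen) and 0 to 1151 when a library was left out. The upper ends came without knockout 1. Of 30 members, those called lower numbered 1 by DESeq2, against 1.95% of all genes. Over left-out libraries they numbered 0 to 2, and members called higher 0 to 5. The upper ends, without knockout 1, stood against 7.44% of all genes lower and 10% higher. Members higher at an unadjusted p under 0.05 numbered 2 with no filter, 2 by DESeq2 and 1 with the replicate block. The share of all genes at that p is not given here for those settings, so nothing is read from these counts. Over left-out libraries, 0 to 9 members were higher at that p, with 9 against 17.9% of all genes. Members lower numbered 1 to 4, with 4 when control 2 was left out, against 4.27% of all genes. A stricter form of the sterol element was in 0 of 31 member promoters (0%), against 0.0913% of all promoters.

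Library totals moved the median of all genes to −0.10. Fold changes that turned sign were all small: Mvk 0.0079 with no filter, 0.0047 by limma-voom, 0.0091 with the replicate block and 0.0074 with the sex of the series text; Mvd 0.0031 by limma-voom and 0.002 with the block; with library totals Acat2 −0.0075, Lss −0.099, Msmo1 −0.014, Dhcr7 −0.0007 and Srebf1 −0.081; and with sex by Xist Acat2 −0.031, Lss −0.11, Dhcr7 −0.11 and Srebf1 −0.034. Over left-out libraries the ranges that crossed 0 were −0.18 to 0.17 for Mvk, −0.020 to 0.31 for Pmvk, −0.22 to 0.22 for Mvd, −0.017 to 0.40 for Fdps, −0.0024 to 0.25 for Acat2, −0.29 to 0.075 for Fdft1, −0.10 to 0.28 for Lss, −0.10 to 0.40 for Cyp51, −0.15 to 0.26 for Msmo1, −0.039 to 0.26 for Nsdhl, −0.23 to 0.058 for Sc5d, −0.10 to 0.36 for Dhcr7, −0.035 to 0.15 for Srebf1, −0.062 to 0.35 for Insig1 and −0.059 to 1.22 for Scd1. Of the other 270 values, 254 kept direction and side, and of 180 with a library left out, 153 did. The cause was not tested. With 3 libraries a group, members of a few CPM, such as Idi1, have the least depth.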
